A study of Mus musculus with 36 samples.

Results

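The 4 adult globin genes and 2 other genes named for red cells, Alas2 and Slc4a1, were followed through 36 RNA-seq libraries of mouse heart, kidney and liver. Alas2 in liver and Slc4a1 in kidney did not follow the globin genes, and the source of their RNA there was not tested. They were 6 of the 78239 genes counted, taken by symbol and matched to their Ensembl identifiers. Hba-a1 and Hba-a2 encode the adult alpha-globin chains, Hbb-bs and Hbb-bt the adult beta-globin chains, Alas2 the erythroid form of the first enzyme of heme synthesis, and Slc4a1 the anion exchanger of the red cell membrane, known as band 3. All libraries came from wild-type male C57BL/6NCrl mice, an inbred strain, with no treatment, aged 8, 10 and 12 weeks, with 4 libraries for each tissue at each age. The study's methods describe bleeding of the mice before the organs were taken and no step that flushed the vessels of the organs, so red cells could be present in each tissue. The study's methods call the 4 libraries of a tissue and age biological replicates. The labels number the libraries and do not tie the numbers to animals, so whether libraries of different tissues share a mouse is not known. The p-values below measure the spread between these libraries. Between 21031599 and 33637390 read pairs were counted per library, and 1 pair in a library was worth 0.0297 to 0.0475 CPM, the count of a gene per 1000000 counted pairs.

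A red cell carries oxygen on hemoglobin, a tetramer of alpha and beta chains that each hold a heme. Mature mammalian red cells have lost their nucleus, but young red cells, the reticulocytes, still carry globin mRNA for a short time after they enter the blood. A second, shorter product of Slc4a1 is made in the type A intercalated cells of the kidney collecting duct, where it exports bicarbonate. Bulk RNA from a tissue does not separate fewer cells of a type from less RNA per cell.

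The alpha-globin genes lie on chromosome 11 of GRCm39, Hba-a1 at 32233186 to 32234504 and Hba-a2 at 32246168 to 32247320, both on the forward strand. The beta-globin genes lie on the reverse strand of chromosome 7, Hbb-bs at 103475730 to 103482989 and Hbb-bt at 103461727 to 103465047. Alas2 lies on the forward strand of chromosome X at 149330371 to 149353634, and Slc4a1 on the reverse strand of chromosome 11 at 102239650 to 102257029. The coding sequences of each globin pair differed at 1 position, C381T between Hba-a1 and Hba-a2 and C417T between Hbb-bs and Hbb-bt, counted from the A of the start codon. These stretches from the end of the coding sequence are shown because read pairs that lie in such shared sequence cannot be placed in 1 gene, and the capital marks the single base that differs.
Hba-a1: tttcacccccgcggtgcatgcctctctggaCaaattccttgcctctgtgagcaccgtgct
Hba-a2: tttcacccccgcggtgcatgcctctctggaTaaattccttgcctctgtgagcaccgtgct
Hbb-bs: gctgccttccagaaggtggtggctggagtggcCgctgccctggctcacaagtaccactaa
Hbb-bt: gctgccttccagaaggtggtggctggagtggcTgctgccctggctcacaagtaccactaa
The alpha stretches cover coding positions 351 to 410 and the beta stretches 385 to 444, the last 60 bases with the stop codon. Of the 150-base windows in the canonical transcript, 61.0% of those of Hba-a1 were found unchanged in Hba-a2 and 72.1% of those of Hba-a2 in Hba-a1. The shares were 54.6% for Hbb-bs in Hbb-bt and 50.6% for Hbb-bt in Hbb-bs. The counts of the 4 globin genes are therefore counts of the pairs that reached a differing base, and the split within each pair of genes is uncertain.

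The column counted without regard to strand held 0 pairs for Hba-a2 and Hbb-bs in all 36 libraries. The columns counted for each strand, summed, held 14565 pairs for Hba-a2 and 132735 for Hbb-bs. Over Hbb-bs lies Gm74438, an annotated gene on the opposite strand at 103475739 to 103490980, which held 0 pairs without strand and 133873 in the summed strand columns. A gene without a name or position in the annotation used here, ENSMUSG00000136364, held 0 and 15349 pairs. The libraries do not mark strand, and a pair that overlaps genes on both strands is left out as ambiguous when strand is ignored. In the annotation used here, 19.7% of the canonical transcript of Hbb-bs lies in exons of Gm74438, while all its pairs were lost. That annotation names 78168 of the 78239 genes counted, so it is not the one the authors counted with. The reason for the full loss in Hbb-bs and Hba-a2 was not tested. Alas2 lost a part of its pairs in the same column, with 39239 pairs without strand and 47615 in the strand columns, and 15.3% of its canonical transcript lies in exons of Apex2 on the opposite strand. Hba-a1, Hbb-bt and Slc4a1 held the same total in both, 123668, 15457 and 14286 pairs. Values of Hba-a2 and Hbb-bs below are from the summed strand columns, as CPM of that sum, and values of the other members are from the column without strand unless stated.

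**Figure D1:**
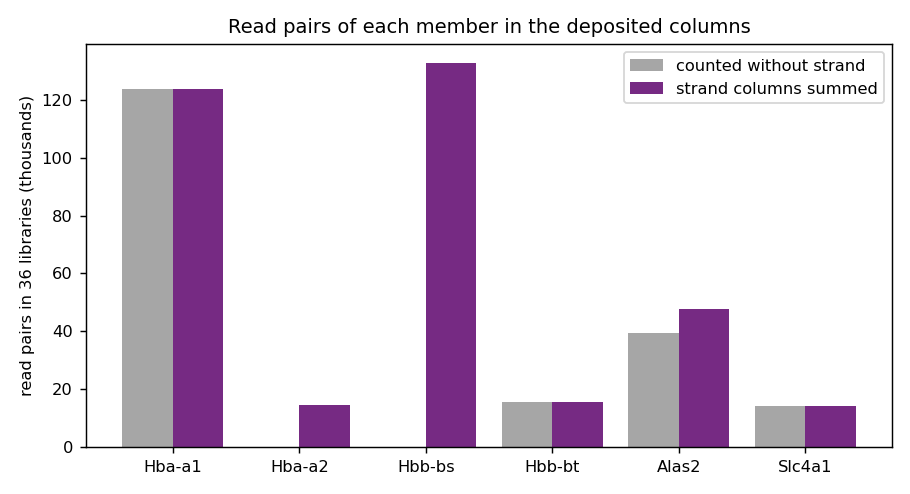
Read pairs of each member summed over the 36 libraries, counted without regard to strand (grey) and with the strand columns summed (purple). Hba-a2 and Hbb-bs have no grey bar because they held 0 pairs, against 14565 and 132735 in the strand columns, and Alas2 is the only other member whose bars differ.

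All 6 members differed between all 3 pairs of tissues, and they did so in 3 orders. The 4 globin genes were highest in heart and lowest in kidney, Alas2 was highest in liver and lowest in kidney, and Slc4a1 was highest in kidney and lowest in liver. The comparison asks how much message of these genes each organ's RNA held, and most genes differed between organs, so each count of members stands beside the share of all genes. Of the 4 members countable without strand, 4 passed the adjusted p in each pair, in edgeR's quasi-likelihood test with Benjamini-Hochberg adjustment, beside 86.1% of all genes for kidney against heart, 84.2% for liver against heart and 83.1% for liver against kidney. With the strand columns summed, 6 of 6 passed in each pair, beside 85.7%, 84.5% and 83.1% of all genes. The median log2 fold change of all genes was 0.15 for kidney against heart and fell by 0.16 for liver against kidney, and the folds below are not corrected for this shift.

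Hba-a1 was measured at 165 to 754 CPM in heart, with a median of 324, at 0.955 to 5.42 CPM in kidney, with a median of 1.98, and at 20.9 to 65.5 CPM in liver, with a median of 33.8. No library of 1 tissue reached the range of another. Against heart, Hba-a1 had a log2 fold change of -7.80 ± 0.26 (SE) in kidney (edgeR, adjusted p = 2.95e-24) and of -2.95 ± 0.20 in liver (adjusted p = 2.15e-15). Hbb-bs ran at 146 to 681 CPM in heart, 1.17 to 3.99 CPM in kidney and 23.1 to 59.6 CPM in liver. It was lower than in heart by a log2 fold change of -7.73 ± 0.26 in kidney (edgeR, adjusted p = 1.87e-24) and -2.87 ± 0.20 in liver (adjusted p = 2.68e-15). Hba-a1 and Hbb-bs thus showed the same order of organs with separate ranges.

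Hba-a2 ran at 15.7 to 66.1 CPM in heart and 2.04 to 5.77 CPM in liver, and reached at most 0.608 CPM, or 17 pairs, in kidney. Hbb-bt ran at 18.04 to 89.8 CPM in heart and 2.57 to 8.12 CPM in liver, and between 0 and 18 pairs were counted in the kidney libraries. For Hbb-bt the kidney library of 8 weeks labelled replicate 1 held 0 pairs, which allows up to 3 pairs and covers counting error only. Hba-a2 and Hbb-bt were well above the counting limit in every heart and liver library and close to it in kidney.

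Per kilobase of canonical transcript, with strand columns summed, the order in heart was Hbb-bs, Hba-a1, Hba-a2, Hbb-bt, Alas2 and Slc4a1. The whole transcript length was used, while globin pairs lying in shared sequence could not be counted. Globin values per kilobase can therefore be too low beside those of Alas2 and Slc4a1, and no correction was made. Hbb-bs averaged 501 ± 233 CPM per kilobase (SD, n = 12) and Hba-a1 422 ± 184, and within a library Hbb-bs was the higher in 11 of 12. Hba-a2 averaged 57.5 ± 22.7 and Hbb-bt 55.1 ± 27.4 CPM per kilobase, with Hba-a2 the higher in 7 of 12 libraries. Alas2 followed with 12.7 ± 5.76 and Slc4a1 with 0.147 ± 0.0937 CPM per kilobase. In liver Alas2, at 49.2 ± 8.76 CPM per kilobase, stood beside Hbb-bs at 53.8 ± 17.2 and Hba-a1 at 43.5 ± 15.4. Within a liver library Hbb-bs was above Hba-a1 in 12 of 12, and Alas2 was above Hbb-bs in 6 of 12 and above Hba-a1 in 8 of 12. In kidney Slc4a1 led with 7.91 ± 1.52 CPM per kilobase, ahead of Hbb-bs at 3.24 ± 1.40 and Hba-a1 at 2.71 ± 1.42.

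**Figure D2:**
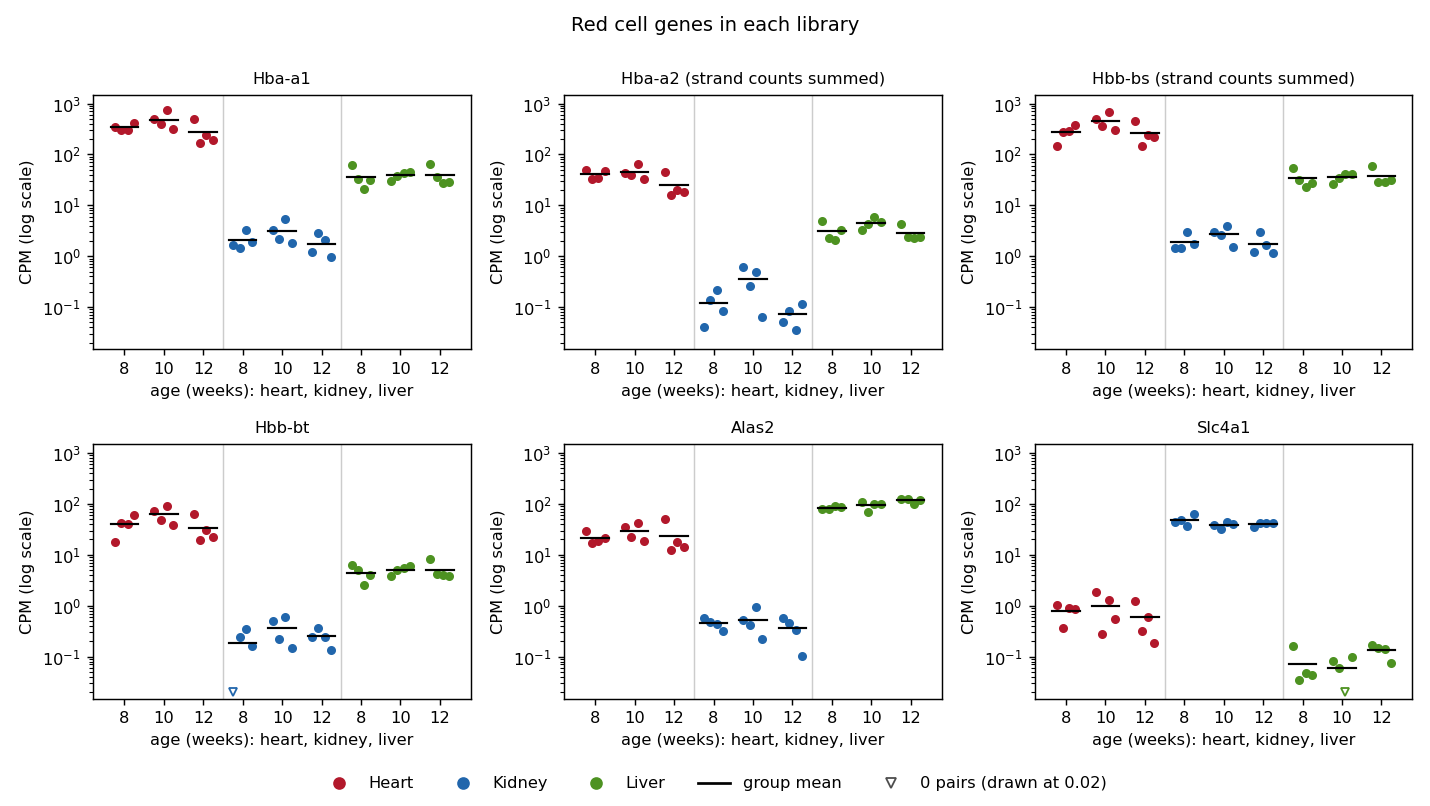
CPM of the 6 members in each of the 36 libraries (points, log axis) by tissue and age, with the mean of each group of 4 as a bar and a library with 0 pairs as an open triangle drawn at 0.02. The globin genes are highest in heart, Alas2 in liver (68.7 to 123 CPM) and Slc4a1 in kidney (31.6 to 63.4 CPM), and the ages overlap within most tissues.

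The 4 globin genes together took 0.0322% to 0.147% of the summed strand counts in heart, 0.00449% to 0.0125% in liver and 0.000222% to 0.000959% in kidney. Globin pairs that could be placed in 1 gene were thus a small part of every library, and largest in heart. The balance of the chains was alike in the 3 organs: Hbb-bs held 1.12 ± 0.171 pairs per Hba-a1 pair in kidney and 1.13 ± 0.103 in liver (SD, n = 12). In heart the ratio was 1.07 ± 0.193 over all 12 libraries and 1.12 ± 0.0762 over the 11 libraries other than replicate 1 of 8 weeks. Hbb-bt held 0.115 ± 0.0126 pairs per Hbb-bs pair in heart, 0.104 ± 0.0440 in kidney and 0.114 ± 0.0116 in liver. Hba-a2 held 0.121 ± 0.0196 pairs per Hba-a1 pair among heart libraries, 0.0842 ± 0.0585 among kidney and 0.1105 ± 0.0252 among liver libraries. The ratios of Hbb-bs to Hba-a1 and of Hbb-bt to Hbb-bs differed between organs by less than their SD over libraries. That of Hba-a2 to Hba-a1 was lower in kidney by more than the SD in heart or liver. The difference was less than the SD in kidney, where Hba-a2 rested on 1 to 17 pairs per library. All these ratios pool the ages.

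One heart library stood apart in this balance. In the heart library of 8 weeks labelled replicate 1, Hbb-bs held 0.502 pairs per Hba-a1 pair, against 1.08 to 1.10 in the other 3 libraries of its group and 1.05 to 1.32 in the 11 others of the tissue. Its Hbb-bs was 146 CPM against 277, 284 and 383 CPM in replicates 2, 3 and 4, and its Hbb-bt was 18.04 CPM against 41.5, 39.4 and 61.0 CPM. Its Hba-a1, at 339 CPM, lay among the other 3, which were at 301, 307 and 410 CPM. Both beta genes were thus low and both alpha genes were not. The kidney and liver libraries of 8 weeks labelled replicate 1 had ratios of 1.06 and 1.04, inside the range of their tissues.

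**Figure D3:**
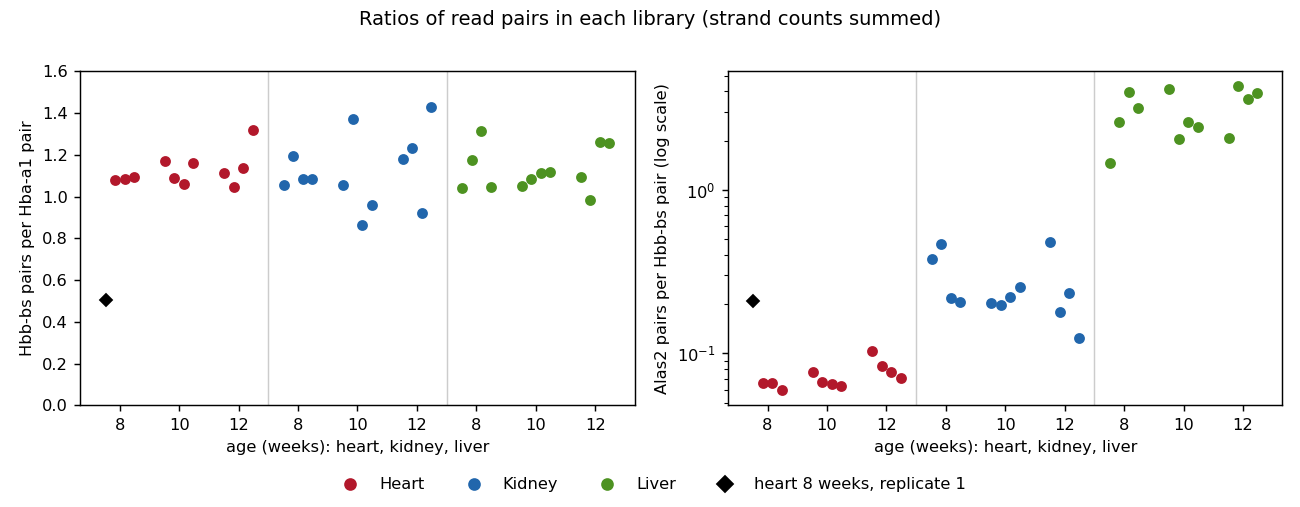
Pairs of Hbb-bs per pair of Hba-a1 (left, linear axis) and pairs of Alas2 per pair of Hbb-bs (right, log axis) in each library, by tissue and age, strand columns summed. The black diamond, heart replicate 1 of 8 weeks at 0.502 and 0.209, is off the other heart libraries in both, and the liver libraries lie at 1.46 to 4.29 Alas2 pairs per Hbb-bs pair.

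Alas2 parted from the globin genes in liver. Its level was 12.3 to 49.5 CPM in heart, 0.102 to 0.931 CPM in kidney and 68.7 to 123 CPM in liver, with separate ranges. On the log2 scale it was 2.25 ± 0.17 higher in liver than in heart (edgeR, adjusted p = 1.56e-14), where the globin genes were lower. From heart to kidney the log2 fold change of Alas2 was -6.29 ± 0.25 (adjusted p = 2.84e-22). There were 0.0596 to 0.104 Alas2 pairs per Hbb-bs pair in the 11 heart libraries other than replicate 1 of 8 weeks, 0.125 to 0.478 in kidney and 1.46 to 4.29 in liver. Alas1, the housekeeping form of the enzyme, is known to be abundant in liver and averaged 574 CPM there, 244 CPM in kidney and 185 CPM in heart. Alb, the serum albumin made by hepatocytes, ran at 53457 to 88834 CPM in liver, 5.05 to 8.40 CPM in kidney and 0 to 15.2 CPM in heart, and its part in the heart values was not tested.

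Slc4a1 parted from the globin genes in kidney. It was counted at 0.186 to 1.83 CPM in heart, 31.6 to 63.4 CPM in kidney and 0 to 0.168 CPM in liver, where no library held more than 5 pairs. Its log2 level was 5.25 ± 0.19 higher in kidney than in heart (edgeR, adjusted p = 9.92e-24), in the tissue where the globin genes were lowest. The 8 fixed markers of type A intercalated cells all passed the test as higher in kidney than in heart, where 86.1% of all genes were called, with a summed level of 503 to 681 CPM in kidney, 0.505 to 1.85 CPM in heart and 1.38 to 7.92 CPM in liver. Among them Foxi1, a transcription factor of intercalated cells, and Atp6v1g3, a subunit of the proton pump, were at 0 in every heart and liver library. Their part in the Slc4a1 level was not tested.

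With age, no member passed the adjusted p in any tissue. The comparison asks whether the organs held a different amount of these messages at 8, 10 and 12 weeks. In the column without strand, 0 of 30 tests over the 3 tissues and 3 pairs of ages passed in edgeR's quasi-likelihood test with Benjamini-Hochberg adjustment, and 5 of the 30 had an unadjusted p under 0.05. Of all genes 11.7% to 23.4% had such a p, depending on the pair of ages. Over all 30 tests the members' share lay in that range. In heart between 12 and 10 weeks it was higher, with 2 of 4 members, Hba-a1 and Hbb-bt, beside 11.7% of all genes. The globin genes were correlated with each other, so these tests are not independent. DESeq2 called 1, Alas2 in liver between 12 and 8 weeks, beside 2.88% of all genes, and limma-voom called 0, beside 0.0204% to 4.80% of all genes. When no filter on low counts was set, edgeR called 10 of 36. In that setting 3.09% of all genes were called in heart between 12 and 8 weeks, 2.18% between 10 and 8 and 0.84% between 12 and 10, 2.39% and 2.23% in kidney between 10 and 8 and between 12 and 10, and 0.96% in liver between 12 and 8. Hbb-bt in kidney and Slc4a1 in liver did not pass the filter on low counts. Among all genes, 4.56% passed between 12 and 8 weeks in heart, 1.06% between 10 and 8 and 0.0396% between 12 and 10. The shares were 0.0567%, 0.929% and 0.482% in kidney, and 0.239%, 0.0204% and 0.0545% in liver, in the same order. With the strand columns summed, 0 of 48 tests passed in edgeR and 11 had an unadjusted p under 0.05, beside 11.6% to 22.8% of all genes. In heart between 12 and 10 weeks 4 of 6 members had such a p, beside 11.8% of all genes. At the adjusted p, of all genes heart had 4.14%, 0.631% and 0.0315% called, kidney 0.0651%, 1.2% and 0.828%, and liver 0.263%, 0.0823% and 0.0604%.

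In heart, the 6 members had their highest means at 10 weeks and wide ranges at every age. Hba-a1 stood at 339, 301, 307 and 410 CPM at 8 weeks, at 488, 389, 754 and 310 CPM at 10 weeks and at 488, 165, 243 and 193 CPM at 12 weeks. The group at 12 weeks held both a library level with the highest but 1 of 10 weeks and the 3 lowest of the tissue. Its log2 fold change from 10 to 12 weeks was -0.84 ± 0.28 (edgeR, adjusted p = 0.274). Hbb-bs stood at 489, 361, 681 and 305 CPM at 10 weeks and at 462, 148, 236 and 216 CPM at 12 weeks, a log2 fold change of -0.80 ± 0.31 (edgeR, adjusted p = 0.328). For Hba-a2 the value was -0.90 ± 0.27 (adjusted p = 0.251) and for Hbb-bt -0.91 ± 0.36 (adjusted p = 0.334). The adjusted p of both alpha genes turned on 1 library: without replicate 1 of 12 weeks, which was the highest of its group in each member, Hba-a1 had a log2 fold change of -1.31 (edgeR, adjusted p = 0.0353) and Hba-a2 of -1.39 (adjusted p = 0.0127). From 8 to 12 weeks the log2 fold change of Hba-a2 was -0.75 ± 0.27 (edgeR, adjusted p = 0.116), and without the same library it was -1.23 (adjusted p = 0.00663).

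Between 8 and 10 weeks in heart, the log2 fold changes were 0.51 ± 0.28 for Hba-a1, 0.74 ± 0.31 for Hbb-bs and 0.64 ± 0.36 for Hbb-bt, with adjusted p of 0.401, 0.278 and 0.405 in edgeR. Alas2 stood at 28.8, 16.9, 18.8 and 21.8 CPM at 8 weeks, at 35.3, 22.03, 42.5 and 18.3 CPM at 10 weeks and at 49.5, 12.3, 17.7 and 14.5 CPM at 12 weeks. At 8 weeks Alas2 was highest in replicate 1, which had the lowest Hbb-bs of its group, while at 10 and 12 weeks the library highest in Alas2 was also the highest in Hbb-bs. Slc4a1 held only 5 to 50 pairs per heart library, and its largest difference was -0.84 ± 0.55 from 10 to 12 weeks (edgeR, adjusted p = 0.577). Platelet markers, another content of blood, summed to 11.1 to 17.8 CPM at 8 weeks, 15.4 to 20.8 CPM at 10 weeks and 10.6 to 16.6 CPM at 12 weeks in heart, with 9 of the 10 markers above 0 at each age, and their part in the globin values was not tested.

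**Figure D4:**
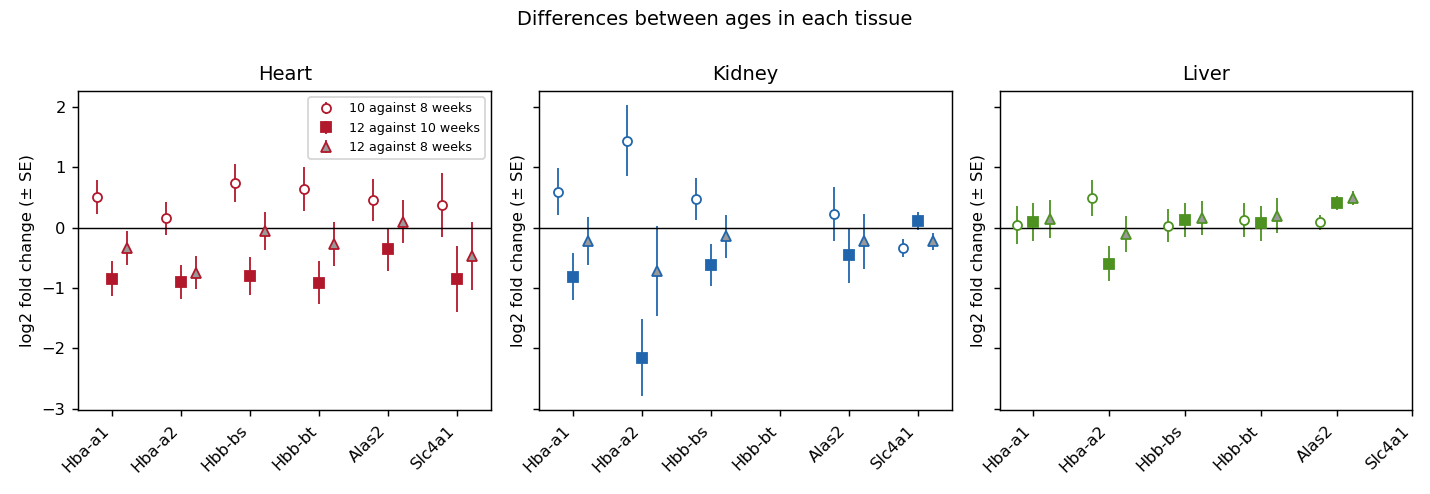
Log2 fold changes between ages from the edgeR fits of each tissue, with standard errors derived from the F statistic. Open circles are 10 against 8 weeks, filled squares 12 against 10 weeks and grey triangles 12 against 8 weeks. No value passed the adjusted p, and Hbb-bt in kidney and Slc4a1 in liver were below the filter and have no points.

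In kidney Hba-a2 and Hbb-bt were near the counting limit, while Hba-a1 and Hbb-bs were above it, the latter with 37 to 141 pairs per library. Hba-a1 stood at 1.64, 1.45, 3.27 and 1.87 CPM at 8 weeks, at 3.34, 2.22, 5.42 and 1.81 CPM at 10 weeks and at 1.19, 2.86, 2.09 and 0.955 CPM at 12 weeks, from 28 to 163 pairs. The 3 ages overlapped, and the log2 difference from 10 to 12 weeks was -0.81 ± 0.39 (edgeR, adjusted p = 0.322). For Hbb-bs the log2 fold change over the same step was -0.62 ± 0.35 (adjusted p = 0.408). The largest fold of any member was that of Hba-a2 from 10 to 12 weeks, -2.15 ± 0.63 (edgeR, adjusted p = 0.114), and it rested on 16, 8, 17 and 2 pairs against 2, 3, 1 and 4. Slc4a1 stood at 43.1, 47.8, 36.9 and 63.4 CPM at 8 weeks, at 37.8, 31.6, 44.5 and 39.6 CPM at 10 weeks and at 34.4, 41.7, 42.6 and 42.4 CPM at 12 weeks. Its groups overlapped, with a log2 difference of -0.34 ± 0.14 from 8 to 10 weeks (edgeR, adjusted p = 0.253).

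In liver Alas2 had a coefficient of variation of 18.2% over the 12 libraries. It stood at 79.1, 81.1, 90.3 and 88.9 CPM at 8 weeks, at 108, 68.7, 101 and 98.005 CPM at 10 weeks and at 122, 123, 102 and 122 CPM at 12 weeks. The groups of 8 and 12 weeks did not overlap, and 12 weeks was higher by 0.49 ± 0.12 on the log2 scale, which did not pass in edgeR (adjusted p = 0.106). It passed in DESeq2 (adjusted p = 0.0155) and missed the threshold in the edgeR fit of the summed strand columns (adjusted p = 0.0962). Among all genes of the liver, 3.48% were higher at 12 than at 8 weeks with no overlap of the CPM values. Alas2 was the only member and pair of ages with no overlap. Liver Hba-a1 stood at 62.6, 32.3, 20.9 and 31.1 CPM at 8 weeks and at 65.5, 35.3, 27.7 and 29.3 CPM at 12 weeks, with a log2 fold change of 0.14 ± 0.31 (edgeR, adjusted p = 0.877), and the ages overlapped. Hbb-bs and Hbb-bt had 0.16 ± 0.28 and 0.20 ± 0.29 for the same pair of ages.

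The differences between ages were also compared between tissues. Of the 4 members countable without strand, 0 passed in any of the 6 interaction contrasts of edgeR's quasi-likelihood test, and 0 had an unadjusted p under 0.05. limma-voom also called 0. Of all genes 4.16% passed for liver against heart, 0.112% for kidney against heart and 0.304% for liver against kidney between 12 and 8 weeks, and 1.09%, 0.198% and 0.0558% between 10 and 8 weeks. For Alas2 the log2 difference between 8 and 12 weeks was 0.39 ± 0.39 larger in liver than in heart (edgeR, adjusted p = 0.672). Without heart replicate 1 of 12 weeks the difference was 1.07 (edgeR, adjusted p = 0.0396).

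Within each tissue the 4 globin genes had positive correlations from library to library. The relation of each other member to Hbb-bs was computed in log2 CPM of the summed strand columns over the 12 libraries of a tissue, 15 relations in all, with two-sided permutation tests of 100000 resamples. Hba-a1 followed Hbb-bs with r = 0.86 and rho = 0.89 in heart (permutation p = 0.00041 and 0.00025, adjusted 0.00123 and 0.00125). In kidney the values were r = 0.95 and rho = 0.97 and in liver r = 0.96 and rho = 0.87, where the permutation p of r was 1e-05, the smallest these resamples can give, and the adjusted p was 3.75e-05 for r. Without the 2 libraries farthest from the median of Hbb-bs, the r values were 0.72 for heart, 0.92 for kidney and 0.90 for liver. Hbb-bt followed Hbb-bs with r = 0.98 and rho = 0.97 in heart and r = 0.93 and rho = 0.89 in liver, and with r = 0.70 and rho = 0.73 in kidney on 0 to 18 pairs. Centred on the means of the age groups, r of Hba-a1 was 0.83, 0.94 and 0.97 in heart, kidney and liver, so the relation also held within ages.

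The heart library with the low beta-globin counts set the lower values of r in heart. Over the 11 others, r with Hbb-bs was 0.99 for Hba-a1, 0.95 for Hba-a2, 0.94 for Alas2 and 0.74 for Slc4a1, where over all 12 it was 0.86, 0.68, 0.71 and 0.54. The permutation p over the 11 libraries was 2e-05 for Alas2 and 0.00901 for Slc4a1, and leaving that library out was chosen after its values were seen. In heart all 5 other members thus had positive r with Hbb-bs.

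Alas2 in liver and Slc4a1 in kidney did not follow the globin genes. In liver r of Alas2 with Hbb-bs was -0.02 and rho -0.04 (permutation p = 0.948 and 0.92, adjusted 0.948 and 0.92), on 1900 to 3633 pairs per library. In kidney r of Slc4a1 with Hbb-bs was -0.19 and rho -0.09 (permutation p = 0.585 and 0.782, adjusted 0.626 and 0.838), on 842 to 1972 pairs. Without the 2 farthest libraries r was -0.11 and -0.21. Each was thus well counted in the tissue where it was highest and had no relation to Hbb-bs that passed the test there. In kidney Alas2, on 3 to 28 pairs without strand, had r = 0.58 and rho = 0.44 (permutation p = 0.037 and 0.153, adjusted 0.0505 and 0.192).

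**Figure D5:**
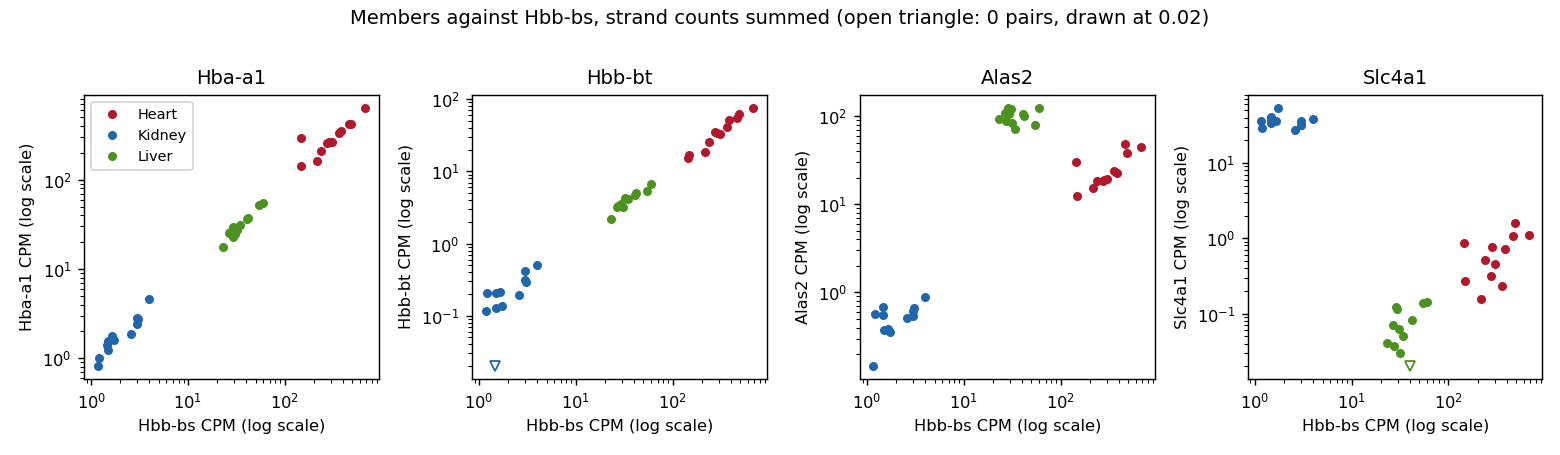
CPM of Hba-a1, Hbb-bt, Alas2 and Slc4a1 against CPM of Hbb-bs in each library (log axes, strand columns summed), coloured by tissue, with open triangles for 0 pairs drawn at 0.02. Hba-a1 and Hbb-bt fall along 1 line through the 3 tissues, while liver lies above that course for Alas2 (70.4 to 124 CPM) and kidney for Slc4a1 (26.9 to 54.1 CPM).

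Libraries with the same number in different tissues were compared, since such libraries might come from 1 mouse. Over 18 relations of 12 numbers each, no adjusted p of r was under 0.05. The largest r was 0.70 with rho = 0.64, for Hba-a2 between heart and liver (permutation p = 0.0118 and 0.0276, adjusted 0.212 and 0.496). For Hbb-bs r was 0.30 between heart and kidney, 0.02 between heart and liver and -0.49 between kidney and liver (permutation p = 0.352, 0.945 and 0.105). Over all genes, the deviations from the group means of libraries with the same number and age in different tissues had a median correlation of 0.0545 (-0.00884 to 0.164, 36 pairs), against -0.0193 (-0.137 to 0.0760, 108 pairs) for different numbers. Deviations from a group mean cancel out within the group, so these medians are not independent of each other. Whether a number marks 1 mouse was not settled by these values. With the number as a block, all members kept their call and direction in each pair of tissues.

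Other genes whose log2 CPM ran closest to Hbb-bs over the 12 libraries of a tissue are given as a description with no test. Gm74438, the annotated gene that lies over Hbb-bs on the opposite strand, had r of 0.999 or more in each tissue. Beside it the nearest non-members were Ptgfrn, Gm14326, Socs3 and Gfod1 in heart, with r of 0.85, 0.84, 0.82 and 0.81. In kidney they were Egfl8, Ntan1 and Katnbl1, with r of 0.87, 0.87 and 0.86, and in liver Mast4, Pxylp1, Pde4b and Ly96, with r of 0.89, 0.86, 0.85 and 0.85. None of the genes given here was among the nearest in more than 1 tissue apart from Gm74438. Hba-a1 and, where it passed the filter, Hbb-bt ranked above all of these except Gm74438 in each tissue. Hba-a2 did not, at rank 65 of 15622 genes for heart (r = 0.68) and rank 63 of 14641 for liver (r = 0.73). Alas2 was at rank 40 for heart and 7441 for liver, and Slc4a1 at rank 12038 of 17223 for kidney. The heart ranks include the library with the low beta-globin counts.

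Genes of the red cell lineage other than the members, counted without strand, were scarce or followed the tissue. In the column without strand, the embryonic globin genes Hba-x, Hbb-y, Hbb-bh0, Hbb-bh1 and Hbb-bh2 and the pseudogene Hbb-bh3 were at 0 in all libraries. That column also held 0 pairs for Hba-a2 and Hbb-bs, so a 0 in it does not show absence. Ahsp, the chaperone of free alpha chains, averaged 0.112 CPM in heart. Gata1, the transcription factor of red cell precursors, averaged 0.0549 CPM in heart and less elsewhere. Klf1, of the same list, was higher in liver than in heart by 5.56 ± 0.24 on the log2 scale (edgeR, adjusted p = 2.6e-21). In kidney Klf1 was higher than in heart by 3.96 ± 0.25 (adjusted p = 3.21e-16). Tal1 and Bcl11a of that list were lower in both than in heart. Among listed late red cell genes, Car1 was 9.23 ± 0.33 higher in liver than in heart, while Tmcc2, Prdx2 and Ube2o were lower. Of the 16 listed genes of the red cell membrane and skeleton 11 were tested, and 7 were lower and 4 higher in kidney than in heart, beside 86.1% of all genes called, with a median log2 fold change of -4.90 beside 0.15 for all genes. Ank1, the ankyrin that ties spectrin to band 3, Tmod1, which caps actin, and Sptb, a beta spectrin, averaged 184, 182 and 195 CPM in heart, and are used by heart muscle as well. Dmtn, an actin bundler, averaged 131 CPM in kidney, and was 4.57 ± 0.10 higher there on the log2 scale (edgeR, adjusted p = 2.58e-30).

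Genes of heme synthesis and heme clearance were compared between tissues in the same fits, in which 84.2% of all genes were called for liver against heart and 86.1% for kidney against heart. Of the 12 heme synthesis genes other than Alas2, 10 were higher and 2 lower in liver than in heart, with a median log2 fold change of 0.96, and 4 were higher and 5 lower in kidney than in heart. Alad, the second enzyme of the pathway, averaged 103 CPM in liver and 31.4 CPM in heart. Of the 13 clearance genes, 11 were higher and 1 lower in liver than in heart. Hpx, which binds free heme in plasma, averaged 4114 CPM in liver and 0.289 CPM in heart, and Hp, which binds free hemoglobin, 3887 CPM in liver and 0.903 CPM in heart. Cd163, the macrophage receptor for hemoglobin bound to Hp, averaged 36.3 CPM in heart, 26.7 CPM in liver and 1.10 CPM in kidney.

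With age, few of the 95 listed pathway genes passed. In heart between 12 and 8 weeks 5 of 66 tested did, 1 higher and 4 lower, beside 4.56% of all genes. Xpo7, a nuclear export receptor induced late in red cell maturation, was higher by 0.31 ± 0.07, and Ftl1, the ferritin light chain, fell by 0.68 ± 0.15 on the log2 scale (edgeR, adjusted p = 0.0222 and 0.022). Ppox of heme synthesis, Ldb1, a partner of GATA1, and Egln2, an oxygen sensor, had log2 fold changes of -0.40, -0.39 and -0.32. In kidney between 10 and 8 weeks 3 of 64 passed, beside 0.929% of all genes. Hmox1, the enzyme that opens the heme ring, stood at 96.3, 143, 75.4 and 112 CPM at 8 weeks and at 35.3, 34.7, 36.8 and 24.6 CPM at 10 weeks, and fell by 1.72 ± 0.27 on the log2 scale (edgeR, adjusted p = 0.0135). The 2 groups did not overlap. Tfrc, the transferrin receptor, was higher by 0.67 ± 0.14, and Slc48a1, a heme transporter, had -0.23 ± 0.05 (adjusted p = 0.0436 and 0.0467). In liver 0 of 63 passed in edgeR in each pair of ages. An unadjusted p under 0.05 was reached by 9 genes between 12 and 8 weeks, 8 between 10 and 8 and 8 between 12 and 10. Of all genes 15.1%, 14.3% and 14.1% had such a p in the same order, so the listed genes were near that share.

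The start regions of the members are shown because the globin genes had positive correlations with each other while Alas2 in liver had none that passed. They are the 110 bases before the RefSeq start in GRCm38.p6, read on the strand of the gene, with the motifs searched on both strands in capitals. RefSeq entries were matched for 5 of the 6 members.
Hba-a1, chr11:32283562-32283671, forward strand: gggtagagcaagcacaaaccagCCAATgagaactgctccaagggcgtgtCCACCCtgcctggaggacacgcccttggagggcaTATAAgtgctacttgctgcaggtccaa
Hbb-bs, chr7:103827929-103828038, reverse strand: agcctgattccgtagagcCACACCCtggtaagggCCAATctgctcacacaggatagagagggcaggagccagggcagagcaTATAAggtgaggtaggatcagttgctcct
Hbb-bt, chr7:103813924-103814033, reverse strand: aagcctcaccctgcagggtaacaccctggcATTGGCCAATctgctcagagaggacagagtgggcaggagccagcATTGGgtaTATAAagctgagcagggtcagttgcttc
Alas2, chrX:150547307-150547416, forward strand: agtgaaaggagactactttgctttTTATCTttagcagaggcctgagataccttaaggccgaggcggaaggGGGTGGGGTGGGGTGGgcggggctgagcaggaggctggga
The capitals mark motif matches on either strand, which may overlap. Shares below are of the 32851 RefSeq windows of 250 bases before a start, and matches farther than 110 bases from it are counted but not printed. The CCAAT box, searched by those letters, was in 33.8% of them and in the windows of all 4 globin genes, and not in that of Alas2. The letters of the TATA box, searched as TATAA, were in 22.8% of all windows and in those of all 5 members matched. In the globin genes printed they lay within the 110 bases shown, and in Alas2 farther from the start. A CACCC box was searched as CCACCC, found in 28.1% of all windows and in those of Hba-a1, Hba-a2, Hbb-bt and Alas2. It was also searched in the longer form CACACCC, found in 6.93% of all windows and among the members in that of Hbb-bs. A site for GATA factors was searched as AGATAA, which 9.99% of all windows held, among the members those of Hbb-bs and Alas2. The other form of that site, TGATAA, was in 7.94% of all windows and in those of the alpha genes. The matches of CCACCC in Hbb-bt, AGATAA in Hbb-bs and TGATAA in Hba-a1 also lay outside the printed bases. Shifted by 3 bases, the windows of Hba-a1 and Hba-a2, taken here to 50 bases past the start, were the same over all 297 bases compared. A match of letters is a description and not a bound site.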

How the data were processed

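RNA of heart, kidney and liver was sequenced as polyA libraries that do not mark strand. Per the labels and the study's methods, the authors trimmed read pairs with cutadapt 4.2, checked them with FastQC 0.11.9 and aligned them with STAR 2.7.11b to GRCm39. The authors deposited 1 table of raw counts per library, with the pairs of each gene counted without regard to strand and for each strand, and pairs placed at more than 1 site left out. Totals were 21031599 to 33637390 counted pairs.

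Members and gene lists were chosen with earlier results of these data known. The planned column, without strand, was at 0 for Hba-a2 and Hbb-bs, so the strand columns were summed for these genes and for the ratios, correlations and levels per kilobase, a choice made after seeing the data. The sum counts a pair once per strand on which it falls in a gene, so its totals were higher. CPM is the count scaled to the column's total over genes.

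Genes were kept with at least 2 non-zero samples and a mean count of at least 10 in at least 1 age group. edgeR 4.0.16 (quasi-likelihood test, TMM factors, R 4.3.3) was fitted over all kept genes, by tissue for ages and over all 36 libraries for tissues and interactions, with Benjamini-Hochberg adjustment and a threshold of 0.05. The standard errors given with edgeR values are the absolute log2 fold change divided by the square root of the F statistic. The fits were tested on simulated data. Correlations used permutation tests in scipy 1.17.1. The named genes were the 6 members, from each fixed list at most the 4 passing genes of lowest adjusted p per comparison or, where none passed, the 2 of highest CPM in a tissue, and the 5 non-members nearest to Hbb-bs per tissue, including Gm74438, with a minimum of 1 CPM; some genes under this rule are not reported here. Gata1, Foxi1, Alas1, Hp and the embryonic globin genes fell outside this rule and were chosen after their values were seen. Alternatives were RLE factors, no filter on low counts, DESeq2 1.42.0, limma-voom (limma 3.58.1), members left out of library sizes, a replicate block, each library left out and, added later, the summed strand columns.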

Additional observations from a re-analysis of the deposited data

Results flagged for a closer look

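Of 101 groups of 4 values of the members and their ratios tested with Dixon's criterion, 17 held a library far from the other 3. For independent, normally spread values chance gives about 1 in 20. The members were correlated and the ratios use the same counts, so the 17 cannot be judged against that rate. In libraries of 12 weeks, replicate 1 stood high in both heart and liver. In heart its Hba-a2 was 45.7 CPM against 15.7 to 19.7 CPM and its Alas2 49.5 CPM against 12.3 to 17.7 CPM. In liver its Hba-a2 was 4.34 CPM against 2.32 to 2.37 CPM, its Hbb-bs 59.6 CPM against 29.0 to 31.0 CPM and its Hbb-bt 8.12 CPM against 3.77 to 4.27 CPM.

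The heart library of 8 weeks labelled replicate 1 stood apart in 5 ratios. It held 0.502 Hbb-bs pairs per Hba-a1 pair against 1.08 to 1.10, 0.169 Hba-a2 pairs per Hba-a1 pair against 0.129 to 0.136, and 0.475 beta-globin pairs per alpha-globin pair against 1.07 to 1.10. Its Alas2 pairs were 0.209 per Hbb-bs pair against 0.0596 to 0.0659 and 0.105 per Hba-a1 pair against 0.0653 to 0.0715.

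Other values lay apart one at a time. Hbb-bs in kidney replicate 3 of 8 weeks was 3.03 CPM against 1.47 to 1.73 CPM. Alas2 in liver replicate 3 of 12 weeks was 102 CPM where the others were at 122 to 123 CPM, and Slc4a1 in kidney replicate 1 of 12 weeks was 34.4 CPM against 41.7 to 42.6 CPM. Slc4a1 in liver replicate 1 of 8 weeks was 0.163 CPM, from 4 pairs, against 0.0354 to 0.0475 CPM. The ratio of Hba-a2 to Hba-a1 in heart replicate 3 of 12 weeks was 0.0948 against 0.1099 to 0.113. In kidney at 12 weeks, replicate 1 held 0.564 Alas2 pairs per Hba-a1 pair against 0.179 to 0.221, and replicate 3 held 1.02 beta-globin pairs per alpha-globin pair against 1.31 to 1.38.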

How the results depend on the processing

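Of 1827 values recomputed under an alternative, 1743 kept their direction and side of the threshold, 49 reversed, 21 passed the threshold where the reported value did not, 4 no longer passed and 10 counts moved. All tissue differences of the members kept their direction and call. Without a filter on low counts, members called in the column without strand were 3 in heart for 10 against 8 weeks and 3 for 12 against 10, and 1 each for heart 12 against 8, kidney 10 against 8, kidney 12 against 10 and liver 12 against 8 weeks. With Hba-a2 and Hbb-bs added from the summed strand columns, the log2 values that then passed were, in heart, 0.51 for Hba-a1, 0.74 for Hbb-bs, 0.64 for Hbb-bt and 0.46 for Alas2 (10 against 8), -0.86 for Hba-a1, -0.90 for Hba-a2, -0.80 for Hbb-bs, -0.93 for Hbb-bt and -0.38 for Alas2 (12 against 10), and -0.35 for Hba-a1 and -0.74 for Hba-a2 (12 against 8). In kidney they were -0.35 for Slc4a1 (10 against 8) and -0.81 for Hba-a1 (12 against 10), and in liver 0.52 for Alas2 (12 against 8). The prior degrees of freedom of the fit went from 8.22, 4.88 and 4.08 in heart, kidney and liver to infinite, 99.1 and 29.3 in that setting. DESeq2 called 1 member in liver for 12 against 8 weeks, Alas2 at 0.50. limma-voom put Alas2 in heart, 12 against 8 weeks, at -0.15.

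Replicate numbers did not pair the samples: deviations of libraries with the same number at different ages had a median correlation of -0.00224 in heart, -0.00249 in kidney and 0.0311 in liver. Between tissues, libraries with the same number and age had a median correlation of 0.0545, against -0.0193 for different numbers. These medians are not independent of each other, and not every pair was over 0.1. The tissue fits reported have no block for the library number. With it the members kept every call. With the replicate block, calls over all genes for 12 against 8 weeks went from 691 to 731 in heart, 10 to 4 in kidney and 35 to 25 in liver, for 10 against 8 weeks from 161 to 232, 164 to 189 and 3 to 5, and for 12 against 10 weeks from 6 to 15, 85 to 97 and 8 to 4, and 0 of 30 member tests passed. Under the block Alas2 in heart, 12 against 8 weeks, was -0.0788, and Hba-a1 and Hbb-bt in liver, 12 against 10 weeks, were -0.0371 and -0.0167.

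With each library left out in turn, log2 values of 12 against 10 weeks ran in heart from -1.31 to -0.58 for Hba-a1 and from -1.39 to -0.70 for Hba-a2, and in kidney from -2.50 to -1.96 for Hba-a2. Without heart replicate 1 of 12 weeks Hba-a1 and Hba-a2 passed, and without kidney replicate 4 of 10 weeks Hba-a2 passed. In heart, 12 against 8 weeks, the ranges were -1.23 to -0.58 for Hba-a2, which passed without replicate 1 of 12 weeks (edgeR, adjusted p = 0.00663), -0.49 to 0.15 for Hbb-bs, -0.79 to 0.0036 for Hbb-bt and -0.58 to 0.31 for Alas2, and for 10 against 8 weeks -0.0450 to 0.28 for Hba-a2 and -0.16 to 0.66 for Slc4a1. In kidney they were -0.22 to 0.48 for Alas2 (10 against 8), and -0.58 to 0.12 for Hba-a1, -0.55 to 0.19 for Hbb-bs and -0.54 to 0.0694 for Alas2 (12 against 8). In liver, 10 against 8 weeks, they were -0.15 to 0.40 for Hba-a1, -0.11 to 0.33 for Hbb-bs and -0.0500 to 0.33 for Hbb-bt, and for 12 against 10 weeks -0.26 to 0.23, -0.19 to 0.23 and -0.26 to 0.18. For 12 against 8 weeks in liver they were -0.22 to 0.50 for Hba-a1, -0.38 to 0.17 for Hba-a2, -0.16 to 0.45 for Hbb-bs, -0.13 to 0.40 for Hbb-bt and 0.45 to 0.55 for Alas2, which passed without liver replicate 2 of 10 weeks (edgeR, adjusted p = 0.0403). In the column without strand, which lacks Hba-a2 and Hbb-bs, counts of members called ran from 0 to 1 in heart for 12 against 10 weeks, in liver for 12 against 8 weeks and for the interactions.

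Without the 2 libraries farthest from the median, r with Hbb-bs no longer passed for Hba-a2 (0.61) and Hbb-bt (0.58) in kidney, which rest on those libraries, or for Hba-a2 (0.41) and Alas2 (0.51) in heart, where r was 0.95 and 0.94 over the 11 libraries other than replicate 1 of 8 weeks, and r of Slc4a1 in liver was -0.18. In CPM without TMM factors r of Alas2 was 0.60 in kidney, which passed, and 0.0166 in liver. Between tissues, r centred on ages was -0.49 for Hba-a2 in kidney and liver, 0.16 for Alas2 in heart and liver, 0.0618 for Alas2 in kidney and liver and 0.21 for Slc4a1 in heart and liver. Without the 2 farthest libraries it was -0.31 for Hba-a2 in kidney and liver, -0.17 for Hbb-bs in heart and liver and 0.13 for Slc4a1 in heart and kidney. The causes of these differences were not tested. Depth limits Hba-a2, Hbb-bt and Alas2 in kidney and Slc4a1 in liver, where libraries held at most 28 pairs.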
